A study of Ursus arctos with 5 samples.

Results

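LPL, CD36, PLIN4 and PNPLA2 cover a short route that fat takes through a muscle fibre, from its uptake to the coat of the lipid droplet and its breakdown there. Every transcript that carried one of these 4 gene names in the deposited expression table was taken, which gave 8 transcripts: 1 of LPL, 3 of CD36, 2 of PLIN4 and 2 of PNPLA2. They are 8 of 9093 transcripts with a gene name, which stand for 4873 genes, and of 26614 transcripts in all. Each name belongs to 1 protein-coding gene in the RefSeq annotation of the brown bear (assembly UrsArc2.0). The transcripts were assembled de novo and named after the human protein they matched, so they are given by the identifiers of the assembly and have no genome coordinates here.

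Triacylglycerol reaches muscle in lipoproteins. Lipoprotein lipase (LPL), which is anchored to the capillary wall, frees their fatty acids, and CD36 helps fatty acids across the membranes of endothelium and fibre. Fatty acids that are not burned at once are stored as triacylglycerol in lipid droplets, whose surface is covered by perilipins such as PLIN4. PNPLA2, also called adipose triglyceride lipase or ATGL, cuts the first fatty acid from the stored triacylglycerol, with ABHD5 as its co-activator. A hibernating bear does not eat and lives mainly on its fat, and the question here was how the transcripts of this route compared between hibernating and active muscle.

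RNA-seq was performed on gastrocnemius biopsies of 2 captive grizzly bears (*Ursus arctos*), a subadult and an adult. The same animals were sampled in October, in the non-hibernating (active) state, and in February, while hibernating and without food. Single-end sequencing gave 4 libraries, 1 per bear and state. All biopsies were taken from bears anesthetized with tiletamine and zolazepam and kept under isoflurane, and the injected dose was lower in hibernation, so state, feeding and dose cannot be told apart. With 1 animal per age class, age and animal cannot be told apart either. The labels list both animals under a single sample for each state and put every age at 10 years, whereas the study speaks of a subadult and an adult. The table has a column for each bear and state, and the age class of each bear was taken from the study's supplementary material.

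The values are RPKM, reads scaled to the length of a transcript and the aligned reads of its library, so levels of different genes are compared per length. Between 44.7 and 54.2 M (mega) aligned reads stood behind the libraries, fewest in the active adult. The 8 transcripts rested on 189 to 17006 reads per library, and the fewest, 189 reads of PLIN4 isotig21570, carry a 95% Poisson interval of 163 to 218 that covers counting error only. Of 21 marker genes of muscle fibres 8 had a named transcript, and their summed level was 13653 to 17393 RPKM. Of 15 markers of fat cells only ADIG had one, with 179.5 to 233.3 RPKM, none of 9 markers of red blood cells did, and macrophages were covered by 2 of 14, with 22.1 to 42.6 RPKM summed. Every transcript in the table was at 1 RPKM or more in all 4 libraries, and those with a gene name held 34.1% to 35.9% of the aligned reads. A gene without a named transcript is thus not shown to be low, and the other markers were not analysed here. In bulk muscle, fewer cells of a type and less RNA per cell cannot be told apart.

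None of the 8 transcripts passed the test between the states. In limma's test on log2(RPKM + 0.5) with Benjamini-Hochberg adjustment, their adjusted p-values were 0.622 to 0.877, and the smallest unadjusted p was 0.128. The same test called 0 of all 9093 named transcripts at an adjusted p under 0.05, a background of 0%, with 826 of them and 0 of the 8 at an unadjusted p under 0.05. The study used NOISeq, and a score was written after its description. It is the share of 53228 same-state differences between the animals that the change of a transcript from state to state equals or exceeds. The change is that between the means of the bears, and it must do so in both the log2 ratio and the RPKM difference, each without its sign. By that score LPL alone of the 8 reached 0.8, against 328 of 9093 named transcripts (3.61%), and as deposited it did so with opposite directions in the bears. With 2 libraries per state, an exact two-sided permutation test of a single transcript cannot go below p = 0.333.

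**Figure D1:**
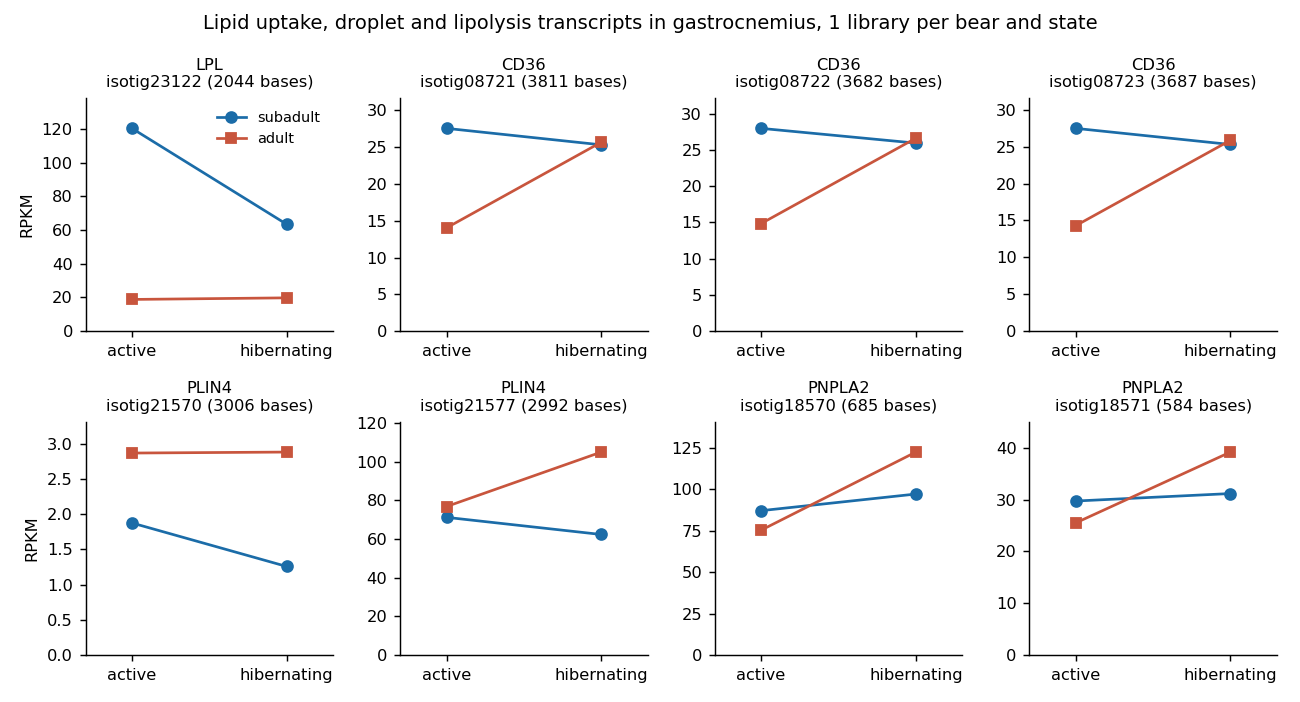
RPKM (y axes, linear from 0, own scale in each panel) of the 8 transcripts in the active and hibernating library of the subadult (blue circles) and the adult (red squares), each point 1 library and each line 1 bear. LPL separates the bears, the 3 CD36 transcripts show a single low library, the active adult, and both PNPLA2 transcripts are higher in hibernation in both bears as deposited, isotig18571 of the subadult not so under the 2 scalings.

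LPL had the widest span. Its transcript isotig23122 (2044 bases, human gene ENSG00000175445) stood at 120.3 RPKM in the active subadult and 63.4 in the hibernating subadult, and at 18.8 in the active adult and 19.8 in the hibernating adult. Both libraries of the subadult were far above both of the adult, and the states overlapped. The level in hibernation was 0.527 times the active level in the subadult and 1.05 times in the adult. The mean was 69.6 RPKM (SD 71.7, n = 2) in activity and 41.6 (SD 30.8, n = 2) in hibernation, so the difference between the states was smaller than the spread between the bears. On the log2 scale it was -0.42 with a standard error of 0.93 and a 95% interval from -2.73 to 1.88 (adjusted p = 0.864 in limma's test).

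The gap between the bears was larger than for almost any other transcript. The subadult had 6.38 times the LPL level of the adult in activity, and only 30 of 9093 named transcripts (0.330%) were at least as far apart on the log2(RPKM + 0.5) scale. In hibernation the gap was 3.20-fold, which 81 transcripts (0.891%) reached. LPL scored 0.804, just above the threshold of 0.8. Its change in the subadult was -0.92 on the log2 scale and that in the adult 0.07, and the small value in the adult took its direction from the scaling, since it became -0.13 after scaling by the median ratio and -0.09 after scaling by the upper quartile.

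Some other transcripts shared a part of the LPL pattern. Summed over the 5 of 9 slow fibre genes with a named transcript, the level was 5948 RPKM in the active and 6505 in the hibernating subadult, against 3158 and 2730 in the adult. The 4 of 11 fast fibre genes were lower in the subadult, with 9640 and 7260 RPKM against 13978 and 13746. The slow fibre sum thus had the order of the bears that LPL had, and its genes went both ways in the subadult, with 3004 and 2872 RPKM of MYH7 and 286 and 161.6 of MYOZ2 but 1968 and 2679 of MYL3, active value first. FASN and SCD, enzymes of fatty acid synthesis chosen here after their values were seen, were highest in the active subadult, as LPL was. FASN had 113 RPKM there against 2.96 to 5.79 in the others, and SCD had 189 RPKM against 2.79 to 10.1. Unlike LPL, both were lower in the hibernating subadult (4.05 and 5.2 RPKM) than in the active adult (5.79 and 10.1 RPKM). In the adult they changed by -0.86 and -1.69 on the log2 scale. The part of fibre type and of fatty acid synthesis genes in the LPL values was not tested.

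CD36 differed in 1 library. Its transcript isotig08721 (3811 bases, human gene ENSG00000135218) stood at 27.5 RPKM in the active and 25.3 in the hibernating subadult, and at 14.03 in the active and 25.7 in the hibernating adult. The active adult was low and the other libraries lay close together. Hibernating over active, the ratio was 0.919 for the subadult and 1.83 for the adult. The states overlapped, and the log2 difference of 0.36 (SE 0.34, 95% interval -0.48 to 1.20) had an adjusted p of 0.730 in limma's test and a score of 0.449.

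The other 2 CD36 transcripts gave the same picture. Isotig08722 (3682 bases) had 28.0, 25.9, 14.8 and 26.6 RPKM in the active and hibernating subadult and the active and hibernating adult. Isotig08723 (3687 bases) had 27.5, 25.3, 14.3 and 25.9 RPKM in the same order. Within a library the 3 differed by factors of 0.998 to 1.06 from isotig08721. How reads that match several transcripts were counted is not given in the sources used here, so the 3 transcripts of 1 gene cannot be taken as 3 measurements.

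Between the bears, CD36 was 1.88 to 1.96 times higher in the subadult during activity, a gap that 4.68% to 5.69% of named transcripts reached. In hibernation the ratio was 0.974 to 0.986, and 92.0% to 95.8% of transcripts were at least as far apart. Across the bears the SD was thus 9.28 to 9.56 RPKM in activity and 0.255 to 0.480 in hibernation (n = 2 each). The direction in each bear held under both scalings, with changes of isotig08721 of -0.25 and 0.65 by the median ratio and of -0.26 and 0.69 by the upper quartile. CD36 is also made by capillary endothelium. The 6 of 14 endothelial markers with a named transcript summed to 41.1 and 40.4 RPKM in the subadult and to 25.8 and 33.8 in the adult, active value first, so their sum was lowest in the library in which CD36 was lowest. That library, the active adult, was also the lowest for 35.6% of all named genes (1734 of 4873). Of all named genes 48.7% were higher in hibernation in both bears, 16.1% lower in both and 35.1% opposite, as deposited. Of the 6 endothelial genes, 4 were higher in both bears, 1 was lower in both and 1 opposite, as CD36 was. The opposite gene was PECAM1, with 13.0, 10.8, 7.53 and 11.6 RPKM in the active and hibernating subadult and the active and hibernating adult. In the same order TIE1 had 9.40, 10.6, 4.72 and 5.89 RPKM and FLT1 had 9.31, 5.52, 6.47 and 5.15. ERG had 2.56, 4.94, 2.75 and 4.64 RPKM, and neither ERG nor FLT1 was lowest in the active adult. EMCN, with 3.23 to 5.97 RPKM, and EGFL7, with 1.11 to 2.54, were. The part of endothelium in the CD36 values was not tested.

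PLIN4, which coats lipid droplets in muscle and fat, was among the most abundant named transcripts of these libraries. Isotig21577 (2992 bases, human gene ENSG00000167676) stood at 71.2 RPKM in the active and 62.3 in the hibernating subadult, and at 76.8 in the active and 105 in the hibernating adult. The hibernating libraries were the lowest and the highest of the 4, so the states overlapped. Hibernating over active, the ratio was 0.875 for the subadult and 1.37 for the adult. The log2 difference was 0.13 (SE 0.30, 95% interval -0.62 to 0.88) with an adjusted p of 0.877 in limma's test and a score of 0.296, and it turned to -0.04 under median-ratio and -0.02 under upper-quartile scaling. The bears were close in activity, with 1.08 times more in the adult, and apart in hibernation, with 1.68 times more, a gap that 1273 of 9093 named transcripts reached. The fat cell marker ADIG had 219.6 and 179.5 RPKM in the active and hibernating subadult and 202.1 and 233.3 in the adult, with changes of -0.29 and 0.21 in the directions of those of PLIN4. Its rise in the adult is about as large as the shift of -0.20 that median-ratio scaling makes there. As deposited, 23.4% of all named genes had this pair of directions. The part of fat cells in the PLIN4 values was not tested.

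The other PLIN4 transcript, isotig21570 (3006 bases), was near the floor of the table. It had 1.87 and 1.26 RPKM in the active and hibernating subadult and 2.87 and 2.88 in the adult. Its log2 difference was -0.21 (SE 0.37, 95% interval -1.12 to 0.69, adjusted p = 0.828 in limma's test). The adult was above the subadult in both states, by 1.53-fold in activity and 2.29-fold in hibernation. Its change in the adult, 0.01, became -0.17 and -0.13 under the 2 scalings. Isotig21577 had 38.0 and 49.6 times the level of isotig21570 in the active and hibernating subadult and 26.8 and 36.4 times in the adult, so that ratio was higher in hibernation in both bears.

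PNPLA2 was the only gene of the 4 whose hibernating libraries were both above the active ones. Isotig18570 (685 bases, human gene ENSG00000177666) had 87.1 RPKM in the active and 97.1 in the hibernating subadult, and 75.3 in the active and 122 in the hibernating adult. The states did not overlap, which was also so for 34.6% of all named transcripts in this direction (3146 of 9093), against 8.80% in the other (800). The ratio of hibernating to active was 1.12 for the subadult and 1.63 for the adult, and the mean was 81.2 RPKM (SD 8.33, n = 2) in activity and 109.8 (SD 17.9, n = 2) in hibernation. The log2 difference of 0.43 (SE 0.24, 95% interval -0.17 to 1.02) had an adjusted p of 0.622 in limma's test, and its score was 0.619.

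The shorter PNPLA2 transcript, isotig18571 (584 bases), had 29.7 and 31.2 RPKM in the active and hibernating subadult and 25.5 and 39.2 in the adult. These states did not overlap either, with ratios of 1.05 and 1.54, a log2 difference of 0.34 (SE 0.23, 95% interval -0.23 to 0.90), an adjusted p of 0.668 in limma's test and a score of 0.520. In each library isotig18570 was 2.93 to 3.12 times as high. Scaling moved the result in the subadult. Under median-ratio scaling the change of isotig18570 was 0.03 and 0.50 in subadult and adult and the states still did not overlap, whereas isotig18571 changed by -0.06 and 0.41 and its states overlapped. Upper-quartile scaling gave 0.01 and 0.54 for isotig18570 and -0.08 and 0.45 for isotig18571. The background fell with it, to 19.3% of named transcripts above and 18.1% below under the median ratio and to 21.0% and 16.7% under the upper quartile.

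**Figure D2:**
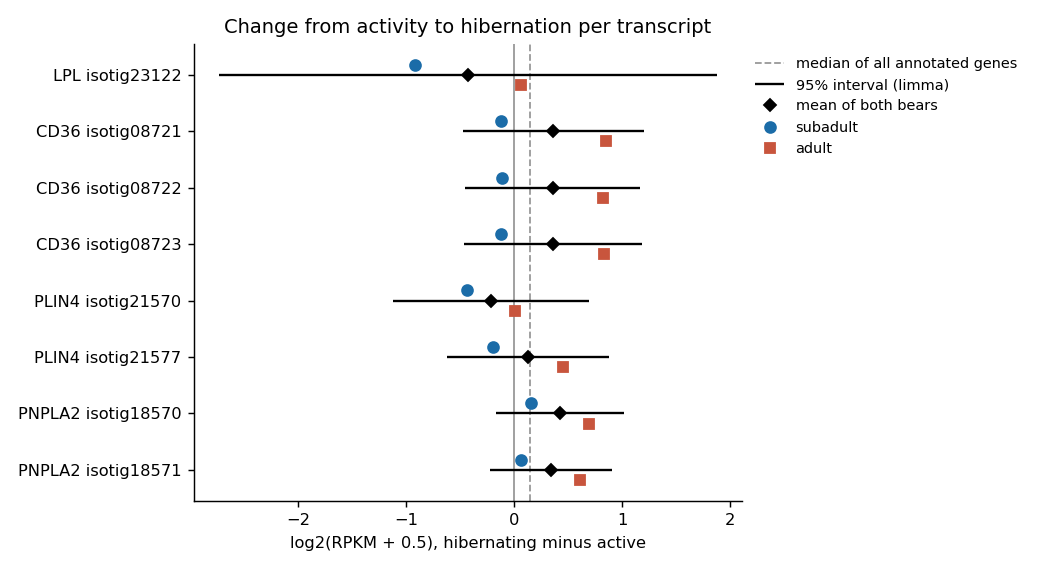
Change from activity to hibernation in log2(RPKM + 0.5) (x axis) of each of the 8 transcripts (y axis), in the subadult (blue circle) and the adult (red square), with the mean of both bears (black diamond), its 95% interval from limma (horizontal line) and the median change of all named genes (dashed line at 0.15). Every interval crosses 0, the widest being that of LPL, from -2.73 to 1.88.

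Set side by side, 6 of the 8 transcripts changed in opposite directions in the bears, all of them negative in the subadult and positive in the adult, against 3171 of 9093 named transcripts (34.9%) with opposite directions of either kind. These 6 belong to 3 genes, and the other 2 are the PNPLA2 transcripts. Under both scalings LPL and PLIN4 isotig21570 were lower in both bears and PNPLA2 isotig18571 was opposite, while the 3 CD36 transcripts and PLIN4 isotig21577 stayed opposite. None of the 8 was at least 1.5-fold higher in both bears (444 of 9093, 4.88%) or at least 1.5-fold lower in both (129, 1.42%). The scaling matters because named genes had a median change of 0.13 (subadult) and 0.17 (adult), and the median ratio moved all changes by -0.13 and -0.20 and the upper quartile by -0.15 and -0.16. The score called 191 transcripts higher and 137 lower as deposited, 108 and 213 under the median ratio, and 112 and 200 under the upper quartile.

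Levels per length had a different order in the bears. Whether nuclease had normalized the cDNA is not given in the sources used here, and since that treatment lowers abundant transcripts against rare ones, the orders, percentiles and ratios of levels that follow hold for the libraries and may be compressed against the RNA. In the active subadult the order was LPL, PNPLA2, PLIN4 and CD36, with 120.3, 87.1, 71.2 and 27.5 RPKM, each gene by its transcript with the most reads. In the hibernating subadult it was PNPLA2, LPL, PLIN4 and CD36, and LPL and PLIN4 were almost level at 63.4 and 62.3 RPKM. The adult had PLIN4 and PNPLA2 almost level in activity at 76.8 and 75.3 RPKM, then LPL at 18.8 and CD36 at 14.03, and in hibernation PNPLA2, PLIN4, CD36 and LPL with 122, 105, 25.7 and 19.8 RPKM. Averaged over the 4 libraries, PNPLA2 (95.5 RPKM), PLIN4 (78.8), LPL (55.6) and CD36 (23.1) were at or above 97.1%, 96.5%, 95.4% and 90.2% of named transcripts. The range of LPL, 18.8 to 120.3 RPKM, overlapped those of its neighbours PLIN4 and CD36, and the ranges of PNPLA2 and PLIN4 overlapped, so no 2 neighbours in this order differed beyond their spread. CD36 had 3 transcripts at nearly equal levels, and how reads shared by them were counted is not given. The place of CD36 in these orders depends on that counting.

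Ratios between genes within a library do not depend on how libraries are scaled. PNPLA2 over PLIN4, the lipase over the droplet coat, was 1.22 in the active and 1.56 in the hibernating subadult and 0.981 and 1.17 in the adult, a log2 change of 0.35 and 0.25. PNPLA2 over LPL, the RNA of a gene of fat release over that of a gene of uptake, was 0.724 and 1.53 in the subadult and 3.998 and 6.19 in the adult. It was thus higher in hibernation in both bears, by 1.08 and 0.63 on the log2 scale. In the subadult LPL itself changed by -0.92 and PNPLA2 by 0.16, and the movement of fat was not measured. The ratio of LPL to CD36 was 4.37 and 2.51 in the subadult and 1.34 and 0.771 in the adult, which is a log2 change of -0.80 in each bear, although the levels of both genes differed between the animals. PNPLA2 over CD36 was 3.16 and 3.84 in the subadult but 5.37 and 4.77 in the adult, with opposite changes of 0.28 and -0.17. These 4 ratios were chosen after the values were seen, and none was tested. Those with CD36 rest on isotig08721 alone, and their size depends on how reads shared with its other transcripts were counted.

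PNPLA2 needs ABHD5 to work at full rate. ABHD5 had 5.71 and 6.11 RPKM in the active and hibernating subadult and 4.33 and 4.27 in the adult, with changes of 0.09 and -0.02 that lie within the shift of the scalings. PNPLA2 over ABHD5 was therefore 15.3 and 15.9 in the subadult, and 17.4 and 28.7 in the adult. MGLL, which takes the last fatty acid from glycerol, had 2.75 and 1.41 RPKM in the subadult and 2.43 and 3.21 in the adult, with opposite changes of -0.77 and 0.34. LIPE, the hormone-sensitive lipase, and G0S2, an inhibitor of PNPLA2, had no named transcript and were not analysed here. In all, 8 of 18 listed lipolysis genes were measured, of which 3 were higher in both bears, 2 lower in both and 3 opposite as deposited. Among all named genes these shares were 48.7%, 16.1% and 35.1%.

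The other perilipins on the table surrounded PLIN4 with different patterns. PLIN2, the droplet coat found in most cells, had 25.2 and 24.9 RPKM in the active and hibernating subadult and 11.4 and 30.6 in the adult, with changes of -0.02 and 1.38, a score of 0.717 and an adjusted p of 0.625 in limma's test. Its low library, the active adult, was that of CD36, and was also the lowest for 35.6% of all named genes (1734 of 4873) and for 11 of the 27 measured uptake, droplet and lipolysis genes (40.7%). PLIN3 had 6.34 and 10.2 RPKM in the subadult and 6.51 and 11.7 in the adult. It was the only gene of the uptake, droplet and lipolysis lists at least 1.5-fold higher in both bears as deposited. That is 3.70% of the 27, against 5.21% of all named genes. PLIN3 rose by 1.61-fold in the subadult, which either scaling takes below 1.5, and by 1.80-fold in the adult. Its log2 difference of 0.72 (SE 0.21) had an unadjusted p of 0.0149 and an adjusted p of 0.541 in limma's test, with a score of 0.755. PLIN2 over PLIN4 was 0.354 and 0.400 in the subadult and 0.149 and 0.291 in the adult. METTL7B, a droplet gene picked out after its values were seen, went the other way, at 1.24 to 3.01 RPKM. Its ratio of hibernating to active was 0.576 for the subadult and 0.709 for the adult, and both scalings lower these ratios further. PLIN1 and PLIN5 had no named transcript and were not analysed here. Of 20 listed droplet genes 7 were measured, of which 3 were higher in both bears, 1 lower and 3 opposite as deposited. Among all named genes these shares were 48.7%, 16.1% and 35.1%.

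Among genes of uptake, 12 of 32 listed were measured. As deposited 3 were higher in both bears, 3 lower and 6 opposite, LPL and CD36 among the latter. The shares of all named genes were 48.7%, 16.1% and 35.1%. VLDLR, a receptor for triacylglycerol-rich lipoproteins, had 7.45 and 7.24 RPKM in the subadult and 5.09 and 4.53 in the adult. SLC27A1, a fatty acid transport protein of muscle, had 20.3 and 20.0 RPKM in the subadult and 26.4 and 26.6 in the adult, the smallest changes between the states of the uptake genes named here. FABP5, a fatty acid binding protein added after its values were seen, had 26.7 and 22.5 RPKM in the subadult and 17.6 and 29.2 in the adult, with changes of -0.24 and 0.71. SLC27A4, of the same family as SLC27A1, had 2.13 and 1.89 RPKM in the subadult and 3.08 and 2.36 in the adult. The partners of LPL on the capillary (GPIHBP1), in its folding (LMF1) and among its inhibitors (ANGPTL4), and the fatty acid binding proteins FABP3 and FABP4, had no named transcript and were not analysed here.

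Over the uptake, droplet and lipolysis lists together, 27 of 70 genes were measured by the transcript with the most reads, and 9 were higher in hibernation in both bears, 6 lower in both and 12 opposite. Among all 4873 named genes 48.7% were higher in both bears, 16.1% lower and 35.1% opposite. Of the 12 opposite genes, 11 had a negative change in the subadult and a positive change in the adult, 40.7% of the 27 against 23.4% of all genes, and 8 of these 11 remain when LPL, CD36, PLIN4 and PNPLA2 are set aside (34.8% of 23). Under both scalings the balance turned, to 7 higher in both bears, 10 lower and 10 opposite, against 30.9% higher and 30.9% lower of all genes under the median ratio and 32.9% and 29.2% under the upper quartile. Under both scalings all 10 opposite genes (37.0%) had the negative change in the subadult, against 17.96% and 20.85% of all genes. The median log2 change of the 27 was 0.13 against 0.15 for all named genes, and it turned to -0.04 and -0.02 under the median ratio and the upper quartile. By bear the median was -0.04 for the subadult and 0.34 for the adult, against 0.13 and 0.17. The score called 1 of the 27, LPL, against 194 of all 4873 named genes. Limma's test called 0 of the 27 and 0 of all named genes. At an unadjusted p under 0.05 in that test were 1 of the 27, PLIN3, and 463 of all named genes.

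**Figure D3:**
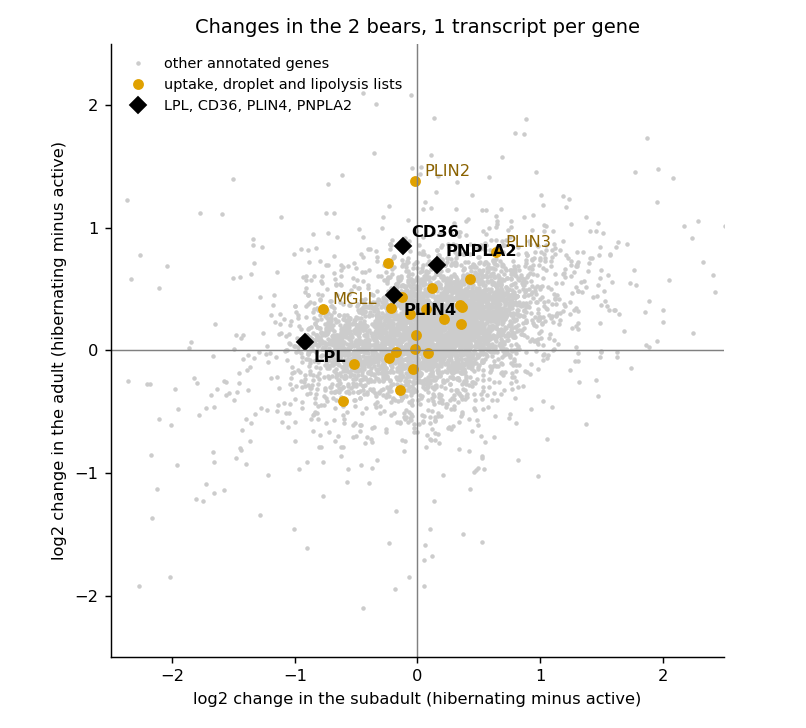
Log2 change from activity to hibernation in the subadult (x axis) and the adult (y axis), 1 point per named gene by its transcript with the most reads, with the uptake, droplet and lipolysis genes in orange and LPL, CD36, PLIN4 and PNPLA2 as black diamonds (22 genes lie outside the axes). LPL, CD36 and PLIN4 lie in the upper left, below 0 in the subadult and above 0 in the adult, and PNPLA2 in the upper right, as deposited (under both scalings LPL is below 0 in the adult too).

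Neighbouring steps of fat metabolism were measured in part. GPAM, the acyltransferase that starts triacylglycerol synthesis, had 16.0 and 5.94 RPKM in the active and hibernating subadult and 2.78 and 1.67 in the adult. It was at least 1.5-fold lower in both bears, as were 64 of all 4873 named genes (1.31%). Its states overlapped, the hibernating subadult being above the active adult, and the adult values were near the floor of the table. GPAM had a score of 0.879 and an adjusted p of 0.715 in limma's test. Of 17 listed genes of triacylglycerol synthesis 4 were measured, and GPAM was the only one with the same direction in both bears. The PPAR receptors are the class of transcription factors through which fatty acids act on LPL, CD36, PLIN2 and PDK4 among others. As deposited, 48.7% of all named genes were higher in both bears, 16.1% lower and 35.1% opposite. Of 23 regulators and targets of the PPAR receptors 12 were measured, 4 higher in both bears, 1 lower and 7 opposite. PDK4, a kinase that restrains glucose oxidation, was the only one of them with a score of at least 0.8 (0.987), with 580.3 and 40.2 RPKM in the active and hibernating subadult against 158.7 and 173.2 in the adult. Its adjusted p in limma's test was 0.583. HADHA and HADHB, which form the trifunctional protein of fatty acid oxidation and were picked out after their values were seen, were lowest in the active adult like CD36 and the 35.6% of genes given above, with 21.8 RPKM of HADHA against 31.0 to 39.1 in the others and 38.8 RPKM of HADHB against 51.7 to 77.7.

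**Figure D4:**
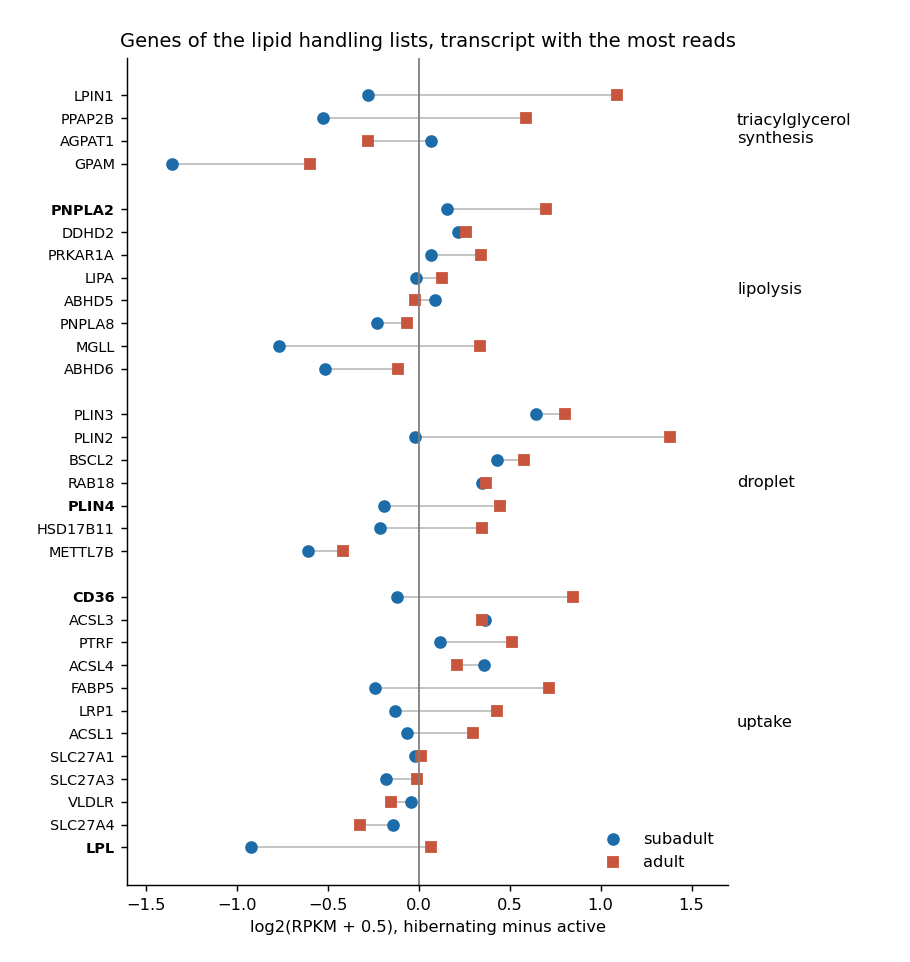
Change from activity to hibernation in log2(RPKM + 0.5) (x axis) in the subadult (blue circles) and the adult (red squares) for each measured gene (y axis) of the uptake, droplet, lipolysis and triacylglycerol synthesis lists, the 4 studied genes in bold and a line joining the bears. PLIN2 has the highest value in the adult at 1.38, GPAM the lowest in the subadult at -1.36, and PLIN3 lies above 0.6 in both bears.

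The genes whose pattern was nearest were sought for each of the 4 among 2383 named genes with a mean of at least 5 RPKM, by the distance between log2(RPKM + 0.5) profiles centred on their mean over the 4 libraries. Profiles were not scaled to their span, so the counts of near genes depend in part on how wide a profile is. LPL had no close neighbour, with 0 genes within a distance of 0.5. The nearest was MYOZ2, a Z-disc protein of slow fibres, at 0.512, with 286 and 161.6 RPKM in the active and hibernating subadult and 71.7 and 62.0 in the adult, followed by GPAM at 0.596 and the basement membrane collagen COL15A1 at 0.690. CD36 had 186 genes within 0.5, led by NCKAP5L (0.133), SPARCL1 (0.174) and AL356585.1 (0.190). PLIN4 had 481, led by ACSS2, an acetyl-CoA synthetase (0.0640), AHNAK (0.0732) and the autophagy receptor SQSTM1 (0.0919). PNPLA2 had 912, led by the TGF-beta receptor TGFBR2 (0.0613), HMGN1 (0.0784) and TCEAL4 (0.0786). The 4 points of a profile share their libraries and depth, and with 4 points such likeness is a description only.

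**Figure D5:**
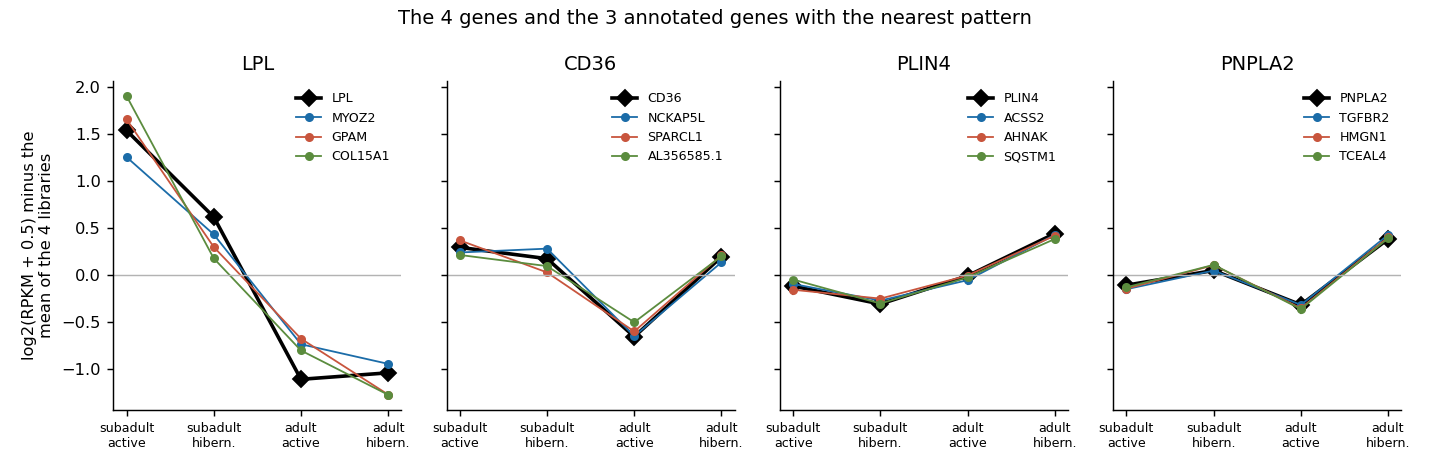
Log2(RPKM + 0.5) minus its mean over the 4 libraries (y axis) in each library (x axis) for LPL, CD36, PLIN4 and PNPLA2 (black diamonds) and the 3 named genes nearest to each (coloured circles), 1 panel per gene on a shared scale. The LPL profile spans the most and its neighbours follow it loosely, at distances of 0.512 to 0.690, while those of PLIN4 and PNPLA2 lie almost on top of it, at 0.0613 to 0.0919.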

How the data were processed

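Biopsy RNA of 2 bears in 2 states was sequenced by the authors as full-length cDNA. They assembled transcripts de novo, named them by BLAST to human proteins, aligned single-end reads with SOAP2 and deposited RPKM per transcript with its length. Whether the cDNA was normalized by nuclease is not given in the sources used here. Such a step compresses levels between genes. It could also lessen differences of a transcript between libraries, so the changes, gaps and scores given here carry that limit too.

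From these, log2(RPKM + 0.5) was tested with limma 3.58.1 (R 4.3.3, trended prior variance, Benjamini-Hochberg over 9093 named transcripts, 2 against 2 libraries), and the score used all 26614 transcripts as noise. Both were also run on simulated data, whose outcome is not given here, so no power or error rate is drawn from it. Depth was read from the step of RPKM times length, with 92.9% to 96.6% of low values whole within 0.1 reads. Since each bear gave both states, the bear pairs the libraries (Pearson r of deviations across transcripts 0.356), and a replicate block was an alternative, as were pseudocounts, scalings, filters and left-out libraries. p-values of the main test rest on the spread between 2 animals within a state, drawn towards the trend over all named transcripts. With the bear as a block they rest on how far the changes of the 2 bears differ, drawn towards the trend in the same way. Column to library assignment left 0 per-sample columns over. Pooled and paired-end libraries were not analysed here. Members and lists were chosen with earlier results of these data known. Named genes are the 4 genes, and of 5 lists those with a score of at least 0.8, a shift of 1.5-fold or more that both bears shared, and also the perilipins, ABHD5, G0S2, LIPE and MGLL as partners of PNPLA2, GPIHBP1, LMF1, ANGPTL4 and VLDLR as partners of LPL, and FABP3, FABP4, SLC27A1 and SLC27A4 as carriers. Genes named outside this rule are marked as chosen after their values were seen, apart from markers and the 3 genes nearest in pattern to each of the 4. Python 3.11.15 (matplotlib 3.10.9, numpy 2.4.6, pandas 2.3.3, scipy 1.17.1) served for tables and plots.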

Additional observations from a re-analysis of the deposited data

Results flagged for a closer look

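The transcripts below changed in opposite directions in the bears between activity and hibernation. With 1 library per bear and state this difference was not tested. Each value is the log2 change in the subadult minus that in the adult. It was -0.99 for LPL, -0.97, -0.93 and -0.95 for CD36 isotig08721, isotig08722 and isotig08723, and -0.64 and -0.44 for PLIN4 isotig21577 and isotig21570. Of the related genes covered by the naming rule above, PDK4 had -3.96, PLIN2 -1.40 and MGLL, at 1.41 to 3.21 RPKM, -1.10. Other listed genes, HADHA, HADHB and FABP5 among them, also changed in opposite directions and are left out here. SLC27A1 at -0.031 and ABHD5 at 0.11 had opposite signs too, on changes close to 0.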

How the results depend on the processing

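No alternative brought a member under an adjusted p of 0.05: over 98 alternatives with a test the lowest was 0.266. Of 148 alternatives, 137 planned and 11 added after seeing the data, 18 reversed a transcript's direction. The median of the uptake, droplet and lipolysis lists, which has no test, also changed sign, from 0.13 to -0.037 and -0.024 under median-ratio and upper-quartile scaling and to -0.040 without the adult. The bear as a replicate block changed no call and called 0 transcripts, with 1229 at an unadjusted p under 0.05 and a lowest adjusted p of 0.340. The count of transcripts called by limma ran from 0 to 92 with 1 library left out, 92 being without the hibernating adult, where the lone library is assumed to vary like the others. A score threshold of 0.9 called 98 transcripts, LPL not among them, and LPL scored 0.858 and 0.857 under median-ratio and upper-quartile scaling and 0.834 against named transcripts as noise. With 1 library or bear left out, the log2 change of LPL ran from -1.75 to 0.90 and was above 0 without the active subadult (0.90), the hibernating adult (0.40) or the subadult (0.07). CD36 isotig08721, isotig08722 and isotig08723 ran from -0.12 to 0.85, -0.11 to 0.82 and -0.12 to 0.83, below 0 without the active adult (-0.11, -0.09 and -0.10) or without the adult. PLIN4 isotig21577 ran from -0.24 to 0.50, below 0 without the hibernating adult (-0.24) or without the adult (-0.19), and was -0.037 and -0.024 under median-ratio and upper-quartile scaling. PLIN4 isotig21570 ran from -0.69 to 0.26, above 0 without the hibernating subadult (0.26), the active adult (0.04) or the subadult (0.01), and has no value at a mean of at least 5 RPKM. PNPLA2 isotig18570 ran from 0.16 to 0.70 and isotig18571 from 0.07 to 0.61, whose change in the subadult alone was -0.063 and -0.078 under the 2 scalings. Apart from the left-out libraries, the causes of these moves were not tested. PLIN4 isotig21570 rests on 189 to 469 reads per library, the fewest of the 8 transcripts.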
